A study of Homo sapiens with 12 samples.

Results

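Cancer-testis antigens, many MAGE genes among them, are genes that most adult tissues outside the germ line keep silent. Many tumours, melanoma among them, transcribe them. The members described here were taken by name, and include MAGE genes that are transcribed in many tissues. The rule takes every gene symbol that begins with MAGEA, MAGEB, MAGEC, MAGED, MAGEE, MAGEF, MAGEH, MAGEL, GAGE, CTAG, CSAG or SSX and a digit. It also takes PRAME. Of 26499 gene symbols counted, 88 met this rule and 84 remained once 4 symbols ending in P were dropped. One of the dropped symbols, SSX2IP, is not a pseudogene but an SSX2-interacting centrosome protein that the name rule caught; it had 33.2 ± 1.74 CPM in resistant A375 cells and 32.4 ± 0.849 CPM in sensitive A375 cells, and 51.6 ± 1.21 CPM in resistant SKMel28 cells and 45.4 ± 1.04 CPM in sensitive SKMel28 cells (SD, n = 3 each). SSX2IP rose in SKMel28 (log2 fold change 0.18 ± 0.05 SE, adjusted p = 0.00245) and did not pass in A375 (0.03 ± 0.06 SE, adjusted p = 0.686). The 7 symbols beginning with CTAGE belong to a separate family that shares the opening letters with CTAG. The RNA came from the human melanoma lines A375 and SKMel28, both long established, in 4 groups of 3 libraries: vemurafenib-resistant A375 cells, sensitive A375 cells, vemurafenib-resistant SKMel28 cells and sensitive SKMel28 cells. Vemurafenib inhibits the mutant BRAF kinase of many melanomas, and the series asked about the IGF1 pathway in resistance to BRAF and MEK drugs. All cells grew in DMEM with 10% fetal bovine serum. Vemurafenib at 1 µmol/L stayed in the medium of the resistant cells, the labels name no drug for the others, and resistance and the drug's presence cannot be told apart. The labels say neither whether a resistant derivative is a single clone nor whether its 3 libraries were grown apart, and the p-values therefore reflect the spread between these samples alone, which may be technical.

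MAGE proteins share a folded module, the MAGE homology domain, through which they bind RING-type ubiquitin ligases and change which proteins those ligases mark for degradation. The type I genes (MAGEA, MAGEB and MAGEC) lie on the X chromosome and are normally transcribed in male germ cells, whereas the type II genes (MAGED, MAGEE, MAGEF, MAGEH and MAGEL) are transcribed in many tissues and are not tumour antigens in the strict sense. In somatic cells the promoters of the type I genes, and of the GAGE, SSX and CTAG genes, are kept silent by DNA methylation, and demethylation together with ETS-type activators turns them on in tumours. Peptides of several of these proteins are presented on HLA class I, and MAGEA1 was found as a melanoma antigen recognised by cytotoxic T cells. Melanoma pathologists use PRAME protein as a diagnostic stain.

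The promoters of 7 members are shown because the results below turn on these genes: MAGEA4 had the highest level in A375 cells, MAGEA11 and MAGEC2 were read almost only in A375 cells, MAGEB2 and GAGE1 were among the members that changed most, MAGED1 fell in both lines, and MAGEA12 shares its promoter with CSAG1. Each runs from 250 bases before the annotated start to 50 bases after it, 5′ to 3′ on the gene's strand, from RefSeq on GRCh38.p14. For MAGEA11 and GAGE1 that start lies inside the gene as GENCODE places it (chrX:149688228-149717266 and chrX:49589496-49608536). Their windows do not cover the GENCODE start. Capitals mark CGGAAG on either strand (CTTCCG on the printed one), a form of the site bound by ETS factors. They also mark the palindrome CACGTG, an E-box bound by factors such as MAX. Other forms of the ETS site were neither marked nor counted.
MAGEA4: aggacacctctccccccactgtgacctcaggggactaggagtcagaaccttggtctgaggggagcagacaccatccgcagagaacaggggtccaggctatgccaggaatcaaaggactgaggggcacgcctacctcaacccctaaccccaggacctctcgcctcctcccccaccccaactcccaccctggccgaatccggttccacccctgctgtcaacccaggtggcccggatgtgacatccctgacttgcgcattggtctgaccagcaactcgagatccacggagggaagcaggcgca
MAGEA11: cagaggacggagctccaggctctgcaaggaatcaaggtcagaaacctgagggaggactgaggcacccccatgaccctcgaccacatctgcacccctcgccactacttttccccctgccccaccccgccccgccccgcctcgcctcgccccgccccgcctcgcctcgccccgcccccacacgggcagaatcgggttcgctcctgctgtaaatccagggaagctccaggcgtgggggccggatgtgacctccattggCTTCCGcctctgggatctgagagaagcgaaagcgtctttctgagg
MAGEC2: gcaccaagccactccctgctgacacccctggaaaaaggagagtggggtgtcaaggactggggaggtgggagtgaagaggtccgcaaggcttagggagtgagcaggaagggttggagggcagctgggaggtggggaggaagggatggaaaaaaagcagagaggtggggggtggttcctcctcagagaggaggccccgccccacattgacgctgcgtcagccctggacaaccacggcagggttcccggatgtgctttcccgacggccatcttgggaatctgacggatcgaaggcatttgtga
MAGEB2: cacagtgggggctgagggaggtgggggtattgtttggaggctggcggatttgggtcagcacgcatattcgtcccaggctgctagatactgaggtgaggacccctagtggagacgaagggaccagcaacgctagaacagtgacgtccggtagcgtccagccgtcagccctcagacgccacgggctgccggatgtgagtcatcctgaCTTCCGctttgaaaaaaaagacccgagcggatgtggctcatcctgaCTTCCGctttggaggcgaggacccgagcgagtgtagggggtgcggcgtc
GAGE1: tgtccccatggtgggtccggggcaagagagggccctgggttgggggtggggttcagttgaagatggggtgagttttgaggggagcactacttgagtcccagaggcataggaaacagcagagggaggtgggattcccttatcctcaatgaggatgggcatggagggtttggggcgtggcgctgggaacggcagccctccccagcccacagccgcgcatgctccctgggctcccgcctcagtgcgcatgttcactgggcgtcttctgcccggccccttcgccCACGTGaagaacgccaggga
MAGED1: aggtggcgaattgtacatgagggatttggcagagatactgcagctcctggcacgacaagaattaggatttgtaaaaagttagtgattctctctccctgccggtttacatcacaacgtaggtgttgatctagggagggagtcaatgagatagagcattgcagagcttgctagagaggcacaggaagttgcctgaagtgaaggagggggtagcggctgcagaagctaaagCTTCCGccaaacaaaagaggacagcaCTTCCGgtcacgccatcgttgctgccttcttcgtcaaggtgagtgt
MAGEA12: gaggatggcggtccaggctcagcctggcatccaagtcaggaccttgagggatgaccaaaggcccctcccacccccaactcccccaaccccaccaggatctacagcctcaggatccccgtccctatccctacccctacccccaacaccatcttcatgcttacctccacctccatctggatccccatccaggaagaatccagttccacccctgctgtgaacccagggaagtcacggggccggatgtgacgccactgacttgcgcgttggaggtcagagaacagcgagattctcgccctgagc
The windows lie at chrX:151912224-151912523 (plus strand, MAGEA4), chrX:149711810-149712109 (plus, MAGEA11), chrX:142205241-142205540 (minus, MAGEC2), chrX:30215313-30215612 (plus, MAGEB2), chrX:49598763-49599062 (plus, GAGE1), chrX:51802826-51803125 (plus, MAGED1) and chrX:152733507-152733806 (plus, MAGEA12). Counted from the annotated start, with no position 0, the printed CTTCCG begins at position 6 in MAGEA11, at -45 and 2 in MAGEB2 and at -22 and 5 in MAGED1. CACGTG begins at position 31 in GAGE1. CGGAAG, on either strand, was found in 4 of 22 MAGEA, MAGEB and MAGEC promoters, 2 of 8 type II promoters, and 19.9% of all 27305 promoters. CACGTG was present in all 12 GAGE promoters that had a sequence, a family of close copies, against 7.44% of all promoters and 0 of 22 MAGEA, MAGEB and MAGEC promoters. The median promoter of the MAGEA, MAGEB and MAGEC genes held 10.5 CG pairs in its 300 bases, from 1 in MAGEB1 to 21 in MAGEA11 and MAGEB2, against 14 for all promoters. The motifs share no letters in these windows with each other, and the matches describe sequence only.

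Reads assigned to genes ran from 28496518 to 37721363 per library. Levels are CPM, reads relative to library size after edgeR's TMM scaling. Calls come from edgeR's two-sided quasi-likelihood test over 15506 genes, with 0.05 as the limit for the Benjamini-Hochberg adjusted p. The labelled cell types were checked against 9 melanoma and melanocyte markers. Their summed level ran from 11074 to 11210.0 CPM in resistant and from 7532 to 7980.0 CPM in sensitive SKMel28 libraries, but from 32.0 to 34.7 CPM in resistant and from 380 to 391 CPM in sensitive A375 libraries, with TYR at 0 CPM in both A375 groups and SOX10 at 0.138 and 325 CPM in resistant and sensitive A375 cells. Germ cell markers, a list of 10 genes, stayed at or below 0.235 CPM in sum outside resistant SKMel28 cells, where the sum of 2.05 to 3.04 CPM came mostly from SYCP1, a synaptonemal complex gene. Markers of other cell types also moved with the groups. The 6 keratinocyte markers summed to 83.3 to 93.7 CPM in resistant and 120.4 to 124 CPM in sensitive A375 libraries, and to 28.5 to 34.1 CPM in resistant and 66.4 to 70.4 CPM in sensitive SKMel28 libraries, mostly KRT10, with KRT14 at 0.499 CPM in resistant and 25.5 CPM in sensitive A375 cells and KRT1 at 0. The 6 leukocyte markers, mostly LYZ in sensitive cells, summed to 2.47 to 3.24 CPM in resistant and 8.35 to 9.78 CPM in sensitive A375 libraries, and to 0.189 to 0.262 CPM in resistant and 1.17 to 2.39 CPM in sensitive SKMel28 libraries, with CD3E at 0 in all. The 7 fibroblast markers summed to 18.7 to 21.9 CPM in resistant and 25.6 to 27.6 CPM in sensitive A375 libraries, and to 17.5 to 21.0 CPM in resistant and 26.7 to 27.1 CPM in sensitive SKMel28 libraries. The 5 endothelial markers summed to 3.03 to 3.72 CPM in resistant and 4.92 to 6.34 CPM in sensitive A375 libraries, and to 2.05 to 2.55 CPM in resistant and 5.99 to 6.67 CPM in sensitive SKMel28 libraries. All 4 sums were lower in resistant libraries of both lines, without overlap, but the genes within a list did not all fall. In resistant SKMel28 cells 2 of 6 tested fibroblast markers were called higher and 2 lower. Of 3 tested keratinocyte markers, 1 was called higher and 1 lower there. In resistant A375 cells 1 of 4 tested endothelial markers was called higher and 1 lower. Of 2 tested leukocyte markers, 1 was called higher and 1 lower in A375. The part of these markers in the results was not tested. In such bulk samples, fewer cells transcribing a gene and less RNA per cell cannot be told apart.

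How well a member could be counted depended on how far its sequence is shared with other genes. Reads that aligned to more than 1 place were kept out of the counts. Copies of a gene that match each other over a whole read can then stand at 0 whether they are transcribed or not. For each member with a GENCODE transcript, the share of 150-base windows found in no other gene's transcripts was computed. Of 84 members, 39 had 0 reads in all 12 libraries. Of the 29 of these that had windows, 21 had under 50% unique windows and 7 had over 90%. The pairs CTAG1A and CTAG1B (NY-ESO-1, a leading vaccine and T-cell therapy target, with 19.7% and 20.1% unique windows), MAGED4 and MAGED4B (2.8% and 4.2%), SSX2 and SSX2B (0% and 16.4%), SSX4 and SSX4B (0% and 0%), and MAGEA9 and MAGEA9B (13.6% and 23.3%) all stood at 0 reads, and their transcription cannot be judged from these counts. Of 22 GAGE members, 18 stood at 0. Reads that aligned to more than 1 place are given as a share of all reads tallied, whether assigned to a gene or not. They made up 4.65 ± 0.126% in resistant and 4.78 ± 0.362% in sensitive A375 libraries, and 2.26 ± 0.179% in resistant and 4.23 ± 0.232% in sensitive SKMel28 libraries (SD, n = 3 each). The counted members were safer: of 25 tested members with windows, 21 had over 90% unique windows. The exceptions were MAGEA3 (72.9%) and MAGEA6 (74.4%), which share sequence with each other, CSAG3 (28.3%, shared most with CSAG2) and MAGEA2 (11.95%, shared most with MAGEA2B), whose values are therefore uncertain.

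**Figure D1:**
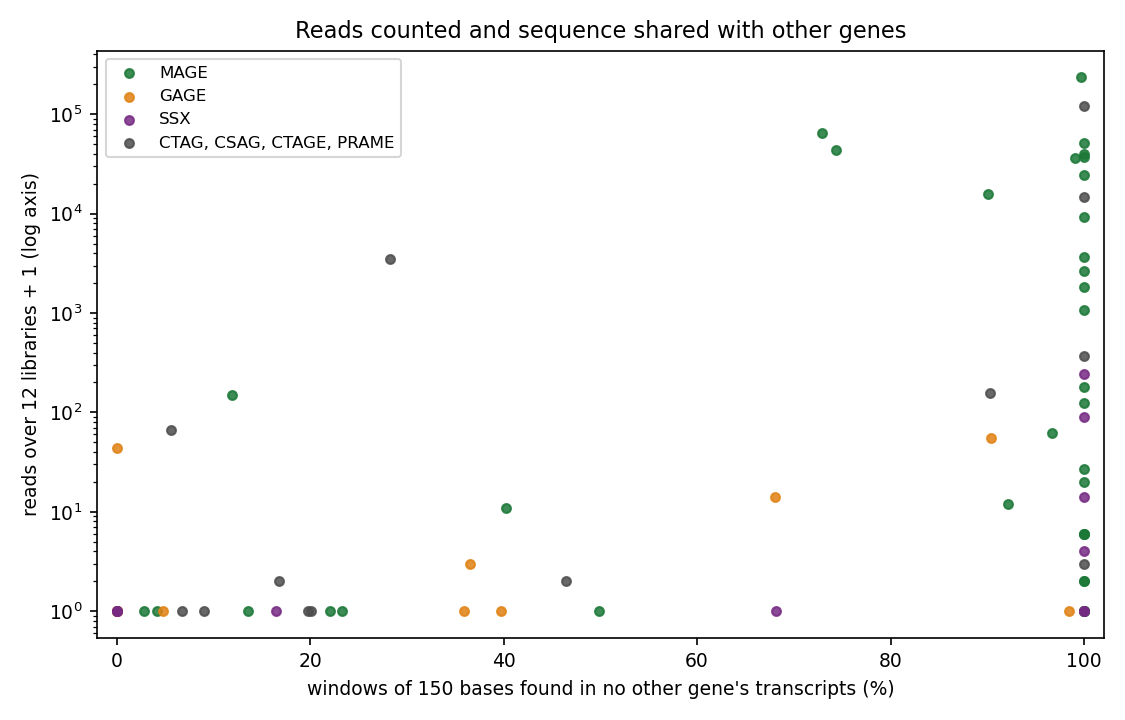
Reads summed over the 12 libraries plus 1 (y, log axis) against the percentage of 150-base windows found in no other gene's transcripts (x) for members with a GENCODE transcript, 1 point a member, coloured by family. Of the 25 tested members with windows, 16 lie at 100% unique windows, and 21 of the 29 members at 0 reads that had windows lie below 50%.

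Of the 84 members, 26 passed edgeR's filter on low counts (17 whose highest group averaged 10 CPM or more, 6 between 1 and 10 CPM and 3 below 1 CPM) and 58 did not. The filter keeps a gene that is high in any one group, so counts over the 26 describe those genes and not all members. In A375, 12 of the 26 rose and 7 fell in resistant cells, and 73.1% were called against 51.3% of all genes tested. In SKMel28, 10 rose and 7 fell, and 65.4% were called against 70.0% of all genes. The SKMel28 share lies near that of all genes and is no result about the members. The median log2 fold change over the 26, resistant over sensitive, was 0.16 in A375 and 0.27 in SKMel28, against 0 and -0.01 over all genes tested. Between lines, 17 of the 26 changed differently, or 65.4% against 63.8% of all genes. The A375 change minus the SKMel28 change was positive in 8 of these and negative in 9, whichever line moved further.

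**Figure D2:**
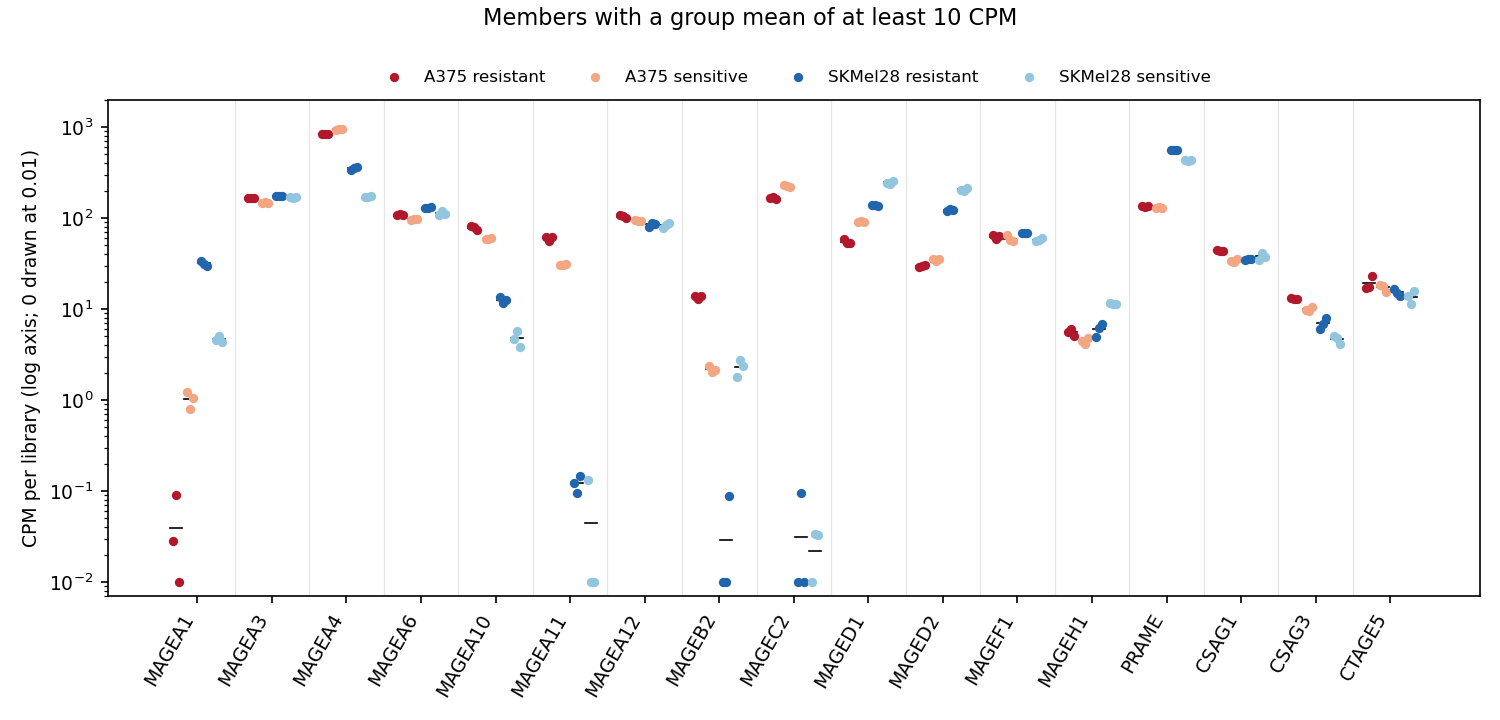
CPM of the 17 members with a group mean of at least 10 CPM (y, log axis, 0 drawn at 0.01), with 1 point a library and a bar at the mean of the 3, resistant left of sensitive within each line. MAGEA11 and MAGEC2 stand high in both A375 groups and near 0 in both SKMel28 groups, while MAGEA1 is near 0 in resistant A375 cells and at 31.7 CPM in resistant SKMel28 cells.

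The 2 lines went opposite ways in 5 members: MAGEB2, MAGEH1 and MAGEL2 rose in resistant A375 cells and fell in resistant SKMel28 cells, and MAGEA1 and MAGEA4 did the reverse. Another 5 rose in both lines (MAGEA6, MAGEA10, CSAG3, SSX1 and SSX5), and MAGED1 and MAGED2 fell in both. CSAG1, MAGEA3, MAGEA11 and MAGEA12 rose in A375 and did not pass in SKMel28, and GAGE1, MAGEC1 and MAGEC2 fell in A375 and did not pass in SKMel28. MAGEF1, PRAME and CTAG2 rose in SKMel28 and MAGEA2 and MAGEE1 fell there, none of them passing in A375. CSAG4 and CTAGE5 passed in neither line. The share of all 15506 tested genes showing each of these joint patterns was not computed. With 51.3% of all genes called in A375 and 70.0% in SKMel28, the counts per pattern are no result about the members.

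Among the type I genes, MAGEA4 held the largest share of reads. Its protein binds and stabilises the ubiquitin ligase RAD18 and is the target of an engineered T-cell therapy. MAGEA4 had 848, 849 and 845 CPM in the resistant A375 libraries, against 932, 958 and 954 CPM in the sensitive ones. It had 339.9, 358 and 365 CPM in the resistant SKMel28 libraries, against 171, 172 and 173 CPM in the sensitive ones. Neither pair of groups overlapped, and the resistant libraries were the lower ones in A375 and the higher ones in SKMel28. The log2 fold change was -0.16 ± 0.03 SE, adjusted p = 2.79e-05 in A375 and 1.04 ± 0.03 SE, adjusted p = 6.68e-29 in SKMel28, and the changes differed between lines (-1.21 ± 0.05 SE, adjusted p = 8.02e-26). Its share of all type I CPM was 54.9% in resistant and 59.0% in sensitive A375 cells, and 44.9% in resistant and 31.3% in sensitive SKMel28 cells.

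MAGEA1, the melanoma antigen, went opposite ways in the lines. MAGEA1 had 0.028, 0.0892 and 0 CPM in the resistant A375 libraries, against 1.23, 0.793 and 1.06 CPM in the sensitive ones, and its resistant values rest on 4 reads in all. It had 33.8, 31.4 and 29.9 CPM in the resistant SKMel28 libraries, against 4.54, 5.04 and 4.37 CPM in the sensitive ones. The resistant libraries were the lowest of all 12 in A375 and the highest of all 12 in SKMel28. MAGEA1 changed by -4.61 ± 0.47 SE, adjusted p = 1.98e-11 in A375 on the log2 scale and by 2.77 ± 0.11 SE, adjusted p = 9.02e-25 in SKMel28. Without resistant A375 replicate 2, which held 3 of the 4 reads, the A375 value was -5.80 with an adjusted p of 2.56e-10.

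MAGEA10, another antigen recognised by T cells, rose in both lines. MAGEA10 had 80.8, 78.7 and 74.8 CPM in the resistant A375 libraries, against 58.8, 58.8 and 59.8 CPM in the sensitive ones. It had 13.6, 11.6 and 12.5 CPM in the resistant SKMel28 libraries, against 4.67, 5.75 and 3.84 CPM in the sensitive ones. All 3 resistant libraries lay above all 3 sensitive ones in each line. The rise was 0.40 ± 0.06 SE, adjusted p = 1.53e-07 in A375 and 1.41 ± 0.10 SE, adjusted p = 6.26e-17 in SKMel28, larger in SKMel28 (difference -1.005, adjusted p = 2.71e-10). A readthrough transcript with MAGEA5 overlaps MAGEA10, which has 90.1% unique windows.

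MAGEA11, a coregulator of the androgen receptor, had 61.1, 56.6 and 61.5 CPM in the resistant A375 libraries, against 30.4, 30.7 and 31.2 CPM in the sensitive ones. It had 0.123, 0.0946 and 0.146 CPM in the resistant SKMel28 libraries, against 0.133, 0 and 0 CPM in the sensitive ones, from 12 reads in resistant and 4 in sensitive libraries. The A375 groups stood apart, and the SKMel28 groups overlapped near 0. MAGEA11 rose by 0.96 ± 0.07 SE, adjusted p = 1.17e-15 in A375 on the log2 scale, while the SKMel28 value of 1.39 ± 0.77 SE, adjusted p = 0.109 missed the threshold. Without sensitive SKMel28 replicate 1, the one sensitive library with reads, the SKMel28 value was 5.06 with an adjusted p of 0.00208. The difference between lines was -0.43 ± 0.73 SE, adjusted p = 0.633, but -4.11 with an adjusted p of 0.0197 without that library, so whether it passes rests on 1 library. With that library out the sensitive SKMel28 group is at 0 reads, and the size of both values depends on the fit's prior count.

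MAGEA3, MAGEA6 and MAGEA12 are close relatives; MAGEA3 and MAGEA6 form a ligase with TRIM28 that degrades the kinase subunit PRKAA1. MAGEA3 had 167, 166 and 166 CPM in the resistant A375 libraries, against 145, 149 and 147 CPM in the sensitive ones. It had 173, 176 and 176 CPM in the resistant SKMel28 libraries, against 169.6, 165 and 170.5 CPM in the sensitive ones. The groups did not overlap in either line, but the gap in SKMel28 was small, and MAGEA3 was called in A375 (0.18 ± 0.04 SE, adjusted p = 4.27e-05) and not in SKMel28 (0.06 ± 0.03 SE, adjusted p = 0.147). MAGEA6 had 107, 111 and 108 CPM in the resistant A375 libraries, against 95.3, 97.9 and 96.7 CPM in the sensitive ones. It had 127, 128 and 132 CPM in the resistant SKMel28 libraries, against 108, 119.7 and 112 CPM in the sensitive ones. MAGEA6 lay higher in every resistant library of its line and rose in both lines, by 0.17 ± 0.04 SE, adjusted p = 0.000453 in A375 and by 0.19 ± 0.04 SE, adjusted p = 5.08e-05 in SKMel28. With the pair summed as one gene, both lines showed a rise, of 0.17 in A375 (adjusted p = 1.56e-05) and 0.11 in SKMel28 (adjusted p = 0.00202), and the difference between lines for the sum was 0.06 with an adjusted p of 0.255. MAGEA12 had 107, 105 and 99.3 CPM in the resistant A375 libraries, against 93.9, 92.7 and 92.8 CPM in the sensitive ones. It had 80.5, 88.5 and 85.9 CPM in the resistant SKMel28 libraries, against 77.9, 84.8 and 88.2 CPM in the sensitive ones. The A375 groups were separate and those of SKMel28 overlapped, with a rise of 0.15 ± 0.05 SE, adjusted p = 0.00407 in A375 and a value of 0.02 ± 0.05 SE, adjusted p = 0.682 in SKMel28.

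MAGEB2, a type I gene on the short arm of X, rose in one line and was nearly lost in the other. MAGEB2 had 13.9, 13 and 13.8 CPM in the resistant A375 libraries, against 2.34, 2.04 and 2.16 CPM in the sensitive ones. It had 0, 0 and 0.0875 CPM in the resistant SKMel28 libraries, against 1.77, 2.72 and 2.35 CPM in the sensitive ones. Every resistant A375 library lay above, and every resistant SKMel28 library below, the sensitive libraries of its line. The rise in A375 was 2.63 ± 0.16 SE, adjusted p = 2.49e-18. In SKMel28 3 reads remained over the resistant libraries, all of them in replicate 3 and none in the others, against 206 over the sensitive ones, and the level was 74.9-fold lower in resistant cells (95% exact counting interval of the ratio 25.3 to 366, which like the others covers counting error only; adjusted p = 4.38e-16). The changes differed between lines with an adjusted p of 1.83e-21. Between the sensitive groups, at 2.18 CPM in A375 and 2.28 CPM in SKMel28, the difference did not pass (-0.06 ± 0.19 SE, adjusted p = 0.789).

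MAGEC2, also a TRIM28 partner, had 166, 168 and 164 CPM in the resistant A375 libraries, against 232, 225 and 219.9 CPM in the sensitive ones. It had 0, 0.0946 and 0 CPM in the resistant SKMel28 libraries, against 0, 0.0336 and 0.0326 CPM in the sensitive ones, from 3 and 2 reads. All resistant A375 libraries lay below all sensitive ones, with a log2 fold change of -0.44 ± 0.04 SE, adjusted p = 4.43e-12, and no fold is given in SKMel28, where both groups were at or under 3 reads. MAGEC1, a second CT antigen of the same family, had 0 reads in every resistant A375 library against 44, 52 and 47 in the sensitive ones. With 3 reads over the group as the floor, MAGEC1 was at least 47.6-fold lower in resistant A375 cells (adjusted p = 2.38e-10). Here and below, such a bound takes the higher group's reads as they stand and leaves out their counting error. In SKMel28 MAGEC1 had 7, 14 and 5 reads in resistant libraries against 2, 2 and 5 in sensitive ones, which overlap, and did not pass (1.38 ± 0.68 SE, adjusted p = 0.0704). Without resistant replicate 3 or sensitive replicate 3 it did pass there, with an adjusted p of 0.0412 and 0.0427.

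MAGEA2 was a type I gene of low level with 0.585 CPM in resistant and 0.388 CPM in sensitive A375 cells, and 0.125 CPM in resistant and 0.432 CPM in sensitive SKMel28 cells. It fell in SKMel28 (-1.79 ± 0.65 SE, adjusted p = 0.013) and did not pass in A375 (0.61 ± 0.50 SE, adjusted p = 0.322). The SKMel28 call was lost without resistant replicate 1 (adjusted p = 0.0692) or resistant replicate 3 (adjusted p = 0.0954), and without resistant replicate 2, which held 9 of the 12 reads, the log2 value was -3.16. The changes differed between lines (2.39 ± 0.82 SE, adjusted p = 0.00974), with 3.76 without resistant SKMel28 replicate 2 (adjusted p = 0.00145) and 1.91 without resistant SKMel28 replicate 3, where the call was lost (adjusted p = 0.0511).

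Summed over the 28 type I members, transcripts stood at 1545 ± 9.6 CPM in resistant and 1606 ± 12.4 CPM in sensitive A375 cells, and at 789 ± 18.02 CPM in resistant and 549.7 ± 10.0 CPM in sensitive SKMel28 cells (SD, n = 3 each). The 28 were taken by name. They include the readthrough transcript MAGEA10-MAGEA5 and MAGEA8-AS1, an antisense transcript by its name, with 10 and 1 reads over all 12 libraries. Of the 11 tested type I members, 6 rose and 4 fell in A375 (90.9% called against 51.3% of all genes, of which 25.0% rose and 26.3% fell), while in SKMel28 4 rose and 2 fell (54.5% against 70.0%, of which 34.2% rose and 35.8% fell). The SKMel28 share is below that of all genes and says nothing particular about these members. The A375 libraries of the groups did not overlap in this total, whose members moved both ways, and in SKMel28 MAGEA4 alone stood at 354 CPM in resistant and 172 CPM in sensitive cells.

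**Figure D3:**
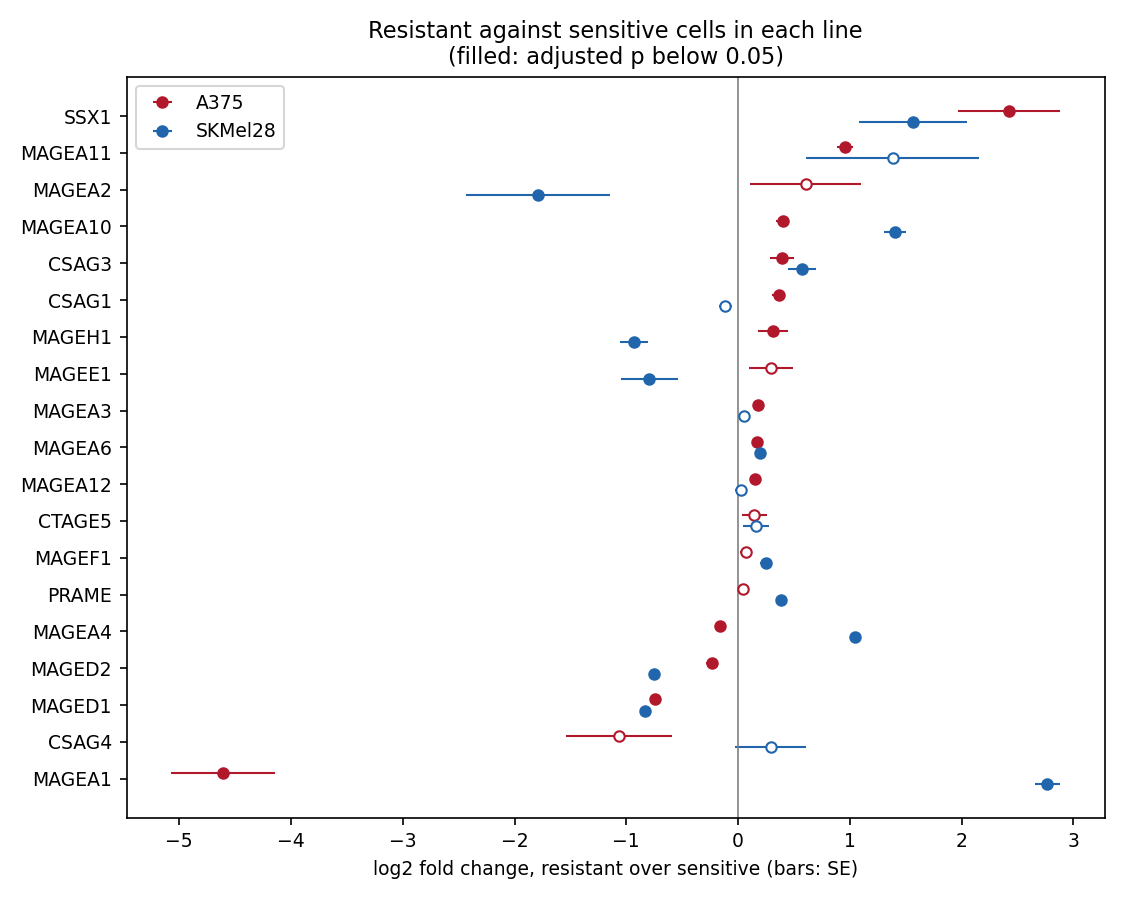
Log2 fold change of resistant over sensitive cells (x, with SE bars) in A375 and SKMel28 for tested members with more than 3 reads in each of the 4 groups, filled where the adjusted p is below 0.05. MAGEA1 lies at -4.61 in A375 and 2.77 in SKMel28, while MAGED1 lies at -0.74 and -0.83 in the same lines.

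Among the type II genes, MAGED1, an adaptor that binds the neurotrophin receptor p75, had 58.4, 52.5 and 52.8 CPM in the resistant A375 libraries, against 90.8, 93.1 and 90.02 CPM in the sensitive ones. It had 139, 139.96 and 134 CPM in the resistant SKMel28 libraries, against 244, 238 and 256 CPM in the sensitive ones. The resistant libraries were lower in both lines without overlap, with log2 fold changes of -0.74 ± 0.04 SE, adjusted p = 6.82e-19 in A375 and -0.83 ± 0.04 SE, adjusted p = 1.69e-22 in SKMel28. The difference between lines missed the threshold (0.09 ± 0.06 SE, adjusted p = 0.168) but passed with scaling by library size (0.16, adjusted p = 0.016), without resistant A375 replicate 2 (adjusted p = 0.0463) and without resistant A375 replicate 3 (adjusted p = 0.0438). MAGED2, whose loss in humans causes a transient fetal salt-wasting disorder, had 29.1, 29.3 and 30.4 CPM in the resistant A375 libraries, against 35.4, 33.6 and 35.7 CPM in the sensitive ones. It had 121, 124 and 123 CPM in the resistant SKMel28 libraries, against 204, 200.4 and 214 CPM in the sensitive ones. The resistant libraries were again the lower ones in both lines, and the log2 fold change was -0.24 ± 0.05 SE, adjusted p = 6.67e-05 in A375 and -0.75 ± 0.04 SE, adjusted p = 7.57e-21 in SKMel28, a larger fall in SKMel28 (difference 0.51 ± 0.06 SE, adjusted p = 1.52e-09).

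MAGEF1, which directs a ligase at the iron-sulphur assembly factor MMS19, had 64.9, 58.9 and 63 CPM in the resistant A375 libraries, against 64.6, 57.5 and 55.7 CPM in the sensitive ones. It had 68.4, 68 and 67.8 CPM in the resistant SKMel28 libraries, against 55.4, 56.8 and 59.9 CPM in the sensitive ones. The A375 groups overlapped, and the resistant SKMel28 libraries lay above the sensitive ones. MAGEF1 rose in SKMel28 (0.25 ± 0.05 SE, adjusted p = 5.77e-05) and did not pass in A375 (0.07 ± 0.05 SE, adjusted p = 0.279), though it did pass there when resistant library 2 was left out (adjusted p = 0.0381) and when sensitive library 1 was (adjusted p = 0.0459). MAGEH1, a small type II protein that also binds p75, had 5.54, 5.98 and 5.06 CPM in the resistant A375 libraries, against 4.43, 4.12 and 4.82 CPM in the sensitive ones. It had 4.94, 6.24 and 6.82 CPM in the resistant SKMel28 libraries, against 11.6, 11.4 and 11.4 CPM in the sensitive ones. The groups did not overlap in either line. MAGEH1 fell in SKMel28 (-0.93 ± 0.12 SE, adjusted p = 6.46e-09). Its rise in A375 lay at the threshold (0.31 ± 0.13 SE, adjusted p = 0.0498) and was lost in 11 of 19 other settings, with adjusted p from 0.0505 to 0.168. The changes differed between lines (1.24 ± 0.18 SE, adjusted p = 9.3e-08).

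MAGEE1, which binds the dystrophin-associated protein dystrobrevin, had 4.16 ± 0.606 CPM in resistant A375 cells and 3.41 ± 0.43 CPM in sensitive A375 cells. In SKMel28 the means were 1.19 ± 0.077 CPM in resistant SKMel28 cells and 2.06 ± 0.818 CPM in sensitive SKMel28 cells (SD, n = 3 each). The groups overlapped in both lines, and MAGEE1 fell in SKMel28 (-0.79 ± 0.25 SE, adjusted p = 0.00495) and did not pass in A375 (0.29 ± 0.20 SE, adjusted p = 0.222). Its SKMel28 call was lost without sensitive replicate 1 (-0.49, adjusted p = 0.108). MAGEL2, an imprinted gene of the Prader-Willi region that works with TRIM27 and USP7, had 0 reads in every resistant SKMel28 library against 46, 20 and 45 in the sensitive ones. MAGEL2 was thus at least 40.3-fold lower in resistant SKMel28 cells (adjusted p = 1.02e-08). In A375 it had 4, 0 and 7 reads in resistant libraries and none in sensitive ones, at least 3.67-fold higher in resistant cells (adjusted p = 0.0155), but the groups overlapped at 0 and the call was lost when resistant library 3 was left out (adjusted p = 0.0862) and when sensitive library 1 was (adjusted p = 0.0507).

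Summed type II transcripts came to 156 ± 6.03 CPM in resistant and 193 ± 4.28 CPM in sensitive A375 cells, and to 336 ± 3.72 CPM in resistant and 524 ± 17.4 CPM in sensitive SKMel28 cells (SD, n = 3 each). Of the 6 tested type II genes, 2 rose and 2 fell in A375 (66.7% called against 51.3% of all genes), while in SKMel28 1 rose and 5 fell (100% called against 70.0%, with 35.8% of all genes lower).

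PRAME, a repressor of retinoic acid receptor signalling and a substrate receptor of a CUL2 ligase, had the highest level per length of the members in SKMel28 cells. PRAME had 136, 133 and 134 CPM in the resistant A375 libraries, against 129, 133 and 128 CPM in the sensitive ones. It had 564, 565 and 563 CPM in the resistant SKMel28 libraries, against 435, 424 and 434 CPM in the sensitive ones. The resistant SKMel28 libraries stood above the sensitive ones by far more than their spread. The A375 groups lay close together without overlap, at 132.99 CPM in the lowest resistant and 132.55 CPM in the highest sensitive library. PRAME rose in SKMel28 (0.39 ± 0.03 SE, adjusted p = 1.37e-14) and missed the threshold in A375 (0.05 ± 0.03 SE, adjusted p = 0.236), where 3 other settings called it: DESeq2 size factors (0.08, adjusted p = 0.0342), library-size scaling (0.08, adjusted p = 0.0408) and DESeq2's own test (0.08, adjusted p = 0.0133). The changes differed between lines (-0.34 ± 0.05 SE, adjusted p = 2.06e-08).

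CSAG1 and CSAG3 sit head to head with MAGE genes, CSAG1 with MAGEA12 (starts 44 bases apart) and CSAG3 with MAGEA2 (37 bases apart); counting was unstranded as far as names in the deposit tell, so reads from the ends of such pairs cannot be assigned with certainty. CSAG1 had 44.1, 43.9 and 42.9 CPM in the resistant A375 libraries, against 33.6, 32.7 and 35.6 CPM in the sensitive ones. It had 34.2, 35.5 and 35.2 CPM in the resistant SKMel28 libraries, against 34.9, 41.4 and 37.1 CPM in the sensitive ones. The resistant A375 libraries were all higher, and the SKMel28 groups overlapped: CSAG1 rose in A375 (0.36 ± 0.06 SE, adjusted p = 1.39e-06) and did not pass in SKMel28 (-0.11 ± 0.06 SE, adjusted p = 0.0921), with a difference between lines of 0.48 ± 0.08 SE, adjusted p = 4e-06. In SKMel28 it was called lower with scaling by library size (-0.15, adjusted p = 0.0271) and without sensitive replicate 1 (-0.16, adjusted p = 0.0258). CSAG3 had 13.3, 12.7 and 13 CPM in the resistant A375 libraries, against 9.65, 9.57 and 10.5 CPM in the sensitive ones. It had 6.05, 6.9 and 7.93 CPM in the resistant SKMel28 libraries, against 5.1, 4.84 and 4.1 CPM in the sensitive ones. CSAG3 lay higher in all resistant libraries of each line and rose in both, by 0.39 ± 0.11 SE, adjusted p = 0.00174 in A375 and by 0.57 ± 0.13 SE, adjusted p = 8.45e-05 in SKMel28. CSAG4, which GENCODE annotates as a pseudogene overlapping MAGEA12, had 0.234 ± 0.137 CPM in resistant A375 cells and 0.49 ± 0.12 CPM in sensitive A375 cells. In SKMel28 it had 1.67 ± 0.368 CPM in resistant SKMel28 cells and 1.37 ± 0.467 CPM in sensitive SKMel28 cells (SD, n = 3 each). It passed in neither line (-1.07 ± 0.47 SE, adjusted p = 0.0561 in A375 and 0.29 ± 0.32 SE, adjusted p = 0.422 in SKMel28), although in A375 it passed when resistant library 2 was left out (adjusted p = 0.0197) and when sensitive library 2 was (adjusted p = 0.0434).

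CTAGE5, a component of endoplasmic reticulum exit sites for large secretory cargo, is broadly transcribed and no member of the CTAG family. CTAGE5 had 16.9, 17.5 and 23.2 CPM in the resistant A375 libraries, against 18.4, 18 and 15.4 CPM in the sensitive ones. It had 16.7, 15.1 and 14 CPM in the resistant SKMel28 libraries, against 13.8, 11.3 and 15.8 CPM in the sensitive ones. The groups overlapped in both lines, with 0.15 ± 0.11 SE, adjusted p = 0.291 in A375 and 0.16 ± 0.12 SE, adjusted p = 0.228 in SKMel28. Without sensitive SKMel28 replicate 3 the SKMel28 value passed (0.29, adjusted p = 0.0362).

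Several members were read in only some of the groups. CTAG2 (LAGE-1), a close relative of NY-ESO-1, had 36, 46 and 47 reads in resistant SKMel28 libraries against 0 in every sensitive one. It was at least 39.4-fold higher in resistant SKMel28 cells (adjusted p = 5.03e-10). In A375 it had 1, 5 and 2 reads in resistant libraries and 10, 4 and 3 in sensitive ones, which overlap (adjusted p = 0.264). GAGE1 had 0 reads in every resistant A375 library against 25, 15 and 10 in the sensitive ones, at least 16.6-fold lower (adjusted p = 5.34e-06). In SKMel28 GAGE1 had 4 reads over the resistant libraries and 0 over the sensitive ones, and did not pass (adjusted p = 0.107). Of the untested GAGE rows, GAGE2E had 4 reads in resistant and 39 in sensitive A375 cells, GAGE2A had 0 in resistant and 13 in sensitive ones, and all 22 GAGE rows together had 4 in resistant and 104 in sensitive ones. GAGE2E had 0% unique windows, and the placing of its reads is therefore uncertain. Summed as one gene, the GAGE rows fell in A375 (log2 fold change -4.56, adjusted p = 1.61e-07).

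SSX1, a nuclear protein whose C-terminal end is fused to SS18 in synovial sarcoma, had 37, 33 and 54 reads in resistant A375 libraries against 10, 12 and 1 in sensitive ones. In SKMel28 it had 26, 24 and 25 reads in resistant libraries against 10, 6 and 7 in sensitive ones. SSX1 lay higher in every resistant library of each line and rose in both, by 2.43 ± 0.46 SE, adjusted p = 1.65e-05 in A375 and by 1.57 ± 0.48 SE, adjusted p = 0.00388 in SKMel28. SSX5, its neighbour, had 20, 30 and 26 reads in resistant SKMel28 libraries against 0, 0 and 5 in sensitive ones (3.72 ± 0.74 SE, adjusted p = 2.34e-05). Without sensitive replicate 3 the log2 value was 7.69, but the sensitive group is then at 0 reads. The size of that value depends on the fit's prior count. In A375 SSX5 had 1, 1 and 6 reads in resistant libraries and none in sensitive ones, at least 2.67-fold higher with the floor of 3 reads. This call (adjusted p = 0.0386) was lost without resistant replicate 3 (adjusted p = 0.233) and without sensitive replicate 1 (0.0982), 2 (0.0839) or 3 (0.08).

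**Figure D4:**
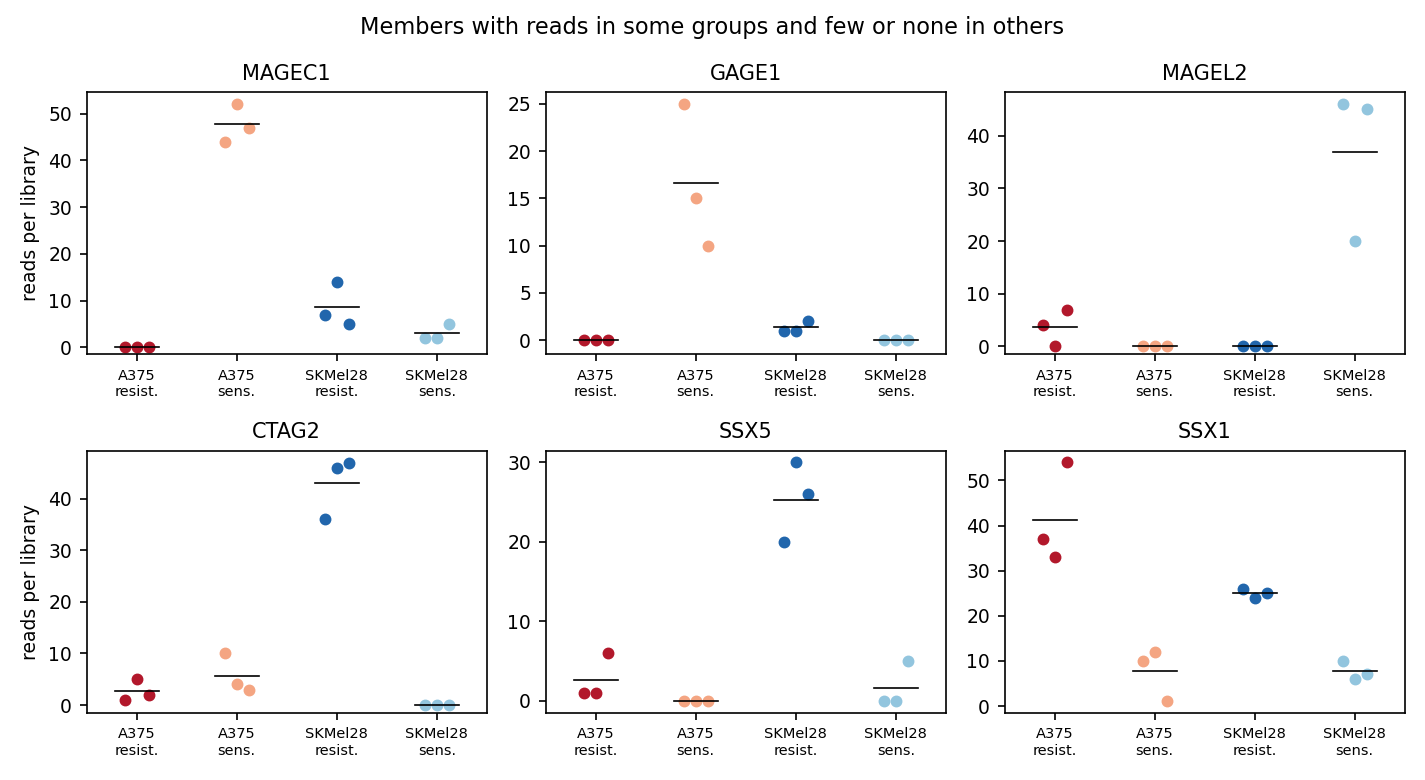
Reads per library (y) of 6 low-level members in the 4 groups, with 1 point a library and a bar at the mean of the 3. MAGEC1 and GAGE1 have reads in sensitive but not in resistant A375 libraries, in SKMel28 MAGEL2 has reads only in sensitive libraries and CTAG2 only in resistant ones, and SSX1 and SSX5 are higher in the resistant libraries of both lines.

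Of the 58 members that did not pass the filter, 19 had at least 1 read, with at most 20 reads in any library, and 9 had at least 10 reads over the 12 libraries. Besides GAGE2A and GAGE2E these were MAGEC3, MAGEA8, MAGEB6, MAGEB17, SSX6, CTAGE8 and the readthrough transcript MAGEA10-MAGEA5. MAGEC3 had 1, 4 and 20 reads in resistant A375 libraries against 0, 0 and 1 in sensitive ones, a ratio of 25.0 with a 95% exact counting interval of 4.1 to 1028, and it rests mainly on 1 library. MAGEA8 had 6, 5 and 4 reads in resistant A375 libraries and none in sensitive ones, at least 5.01-fold higher. SSX6, a pseudogene by GENCODE, had 10 reads in resistant A375 cells and none in sensitive ones, at least 3.34-fold higher. CTAGE8 had 35 reads in resistant and 30 in sensitive SKMel28 cells and none in A375, with 5.6% unique windows. MAGEB6 had 10 reads in resistant and 38 in sensitive SKMel28 cells. MAGEB17 had 11 reads and MAGEA10-MAGEA5 had 10 over all 12 libraries.

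Most members lie on the X chromosome (65 of 84, and 22 of 26 tested), and their changes were set beside those of neighbouring genes. The neighbours were tested non-members within 5 Mb that averaged 2 CPM or more over the 12 libraries. Around the MAGEA and CSAG cluster, from MAGEA11 at chrX:149688228-149717266 to MAGEA1 at chrX:153179285-153183880 (GRCh38), 54 to 64 neighbours had medians of 0.12 to 0.13 in A375 and 0.06 to 0.10 in SKMel28 on the log2 scale. The changes of MAGEA1 (-4.61 and 2.77), MAGEA4 (-0.16 and 1.04) and MAGEA10 (0.40 and 1.41) in A375 and SKMel28 lay away from those medians. Those of MAGEA3 (0.18 and 0.06), MAGEA6 (0.17 and 0.19) and MAGEA12 (0.15 and 0.02) lay within 0.1 of their neighbours' medians of 0.12 and 0.10. In the same cluster MAGEA11 changed by 0.96 and 1.39, CSAG1 by 0.36 and -0.11 and CSAG3 by 0.39 and 0.57. MAGEA2 changed by 0.61 and -1.79 and CSAG4 by -1.07 and 0.29. Of these, the values of MAGEA11, CSAG1 and CSAG4 in SKMel28 and of MAGEA2 and CSAG4 in A375 did not pass. On the proximal short arm of X the picture in SKMel28 was different. There the neighbours' median was -0.79 around MAGED1 (chrX:51803007-51902357, 65 neighbours), -0.78 around MAGED2 (chrX:54807599-54816012, 28 neighbours) and -0.80 around MAGEH1 (chrX:55452105-55453566, 26 neighbours), close to the members' own values of -0.83, -0.75 and -0.93. Around MAGEE1 on the long arm (chrX:76427724-76431353, 24 neighbours) it was -0.52 against -0.79 for MAGEE1 itself. The median of 411 X genes was -0.39 in SKMel28 and 0.08 in A375. In A375 the neighbours of MAGED1 had a median of 0.04 and MAGED1 changed by -0.74. SSX1 and SSX5 lie in the same proximal part of X (chrX:48255317-48267444 and chrX:48186220-48196763), where neighbours had medians of -0.87 and -0.86 in SKMel28, and both rose there. MAGEF1 on chromosome 3 (chr3:184710367-184712002) changed by 0.25 in SKMel28 beside a neighbours' median of 0.27, and PRAME on chromosome 22 (chr22:22547701-22559361) by 0.39 beside 0.04. MAGEB2, MAGEC1 and MAGEC2 had only 5 to 6 such neighbours and MAGEL2 had 16. In A375 and SKMel28 their medians were -0.72 and -0.35 around MAGEB2 and 0.95 and -1.11 around MAGEC1 and MAGEC2. Around MAGEL2 they were 0.04 and -0.48. The part of the surrounding region in the members' changes was not tested.

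**Figure D5:**
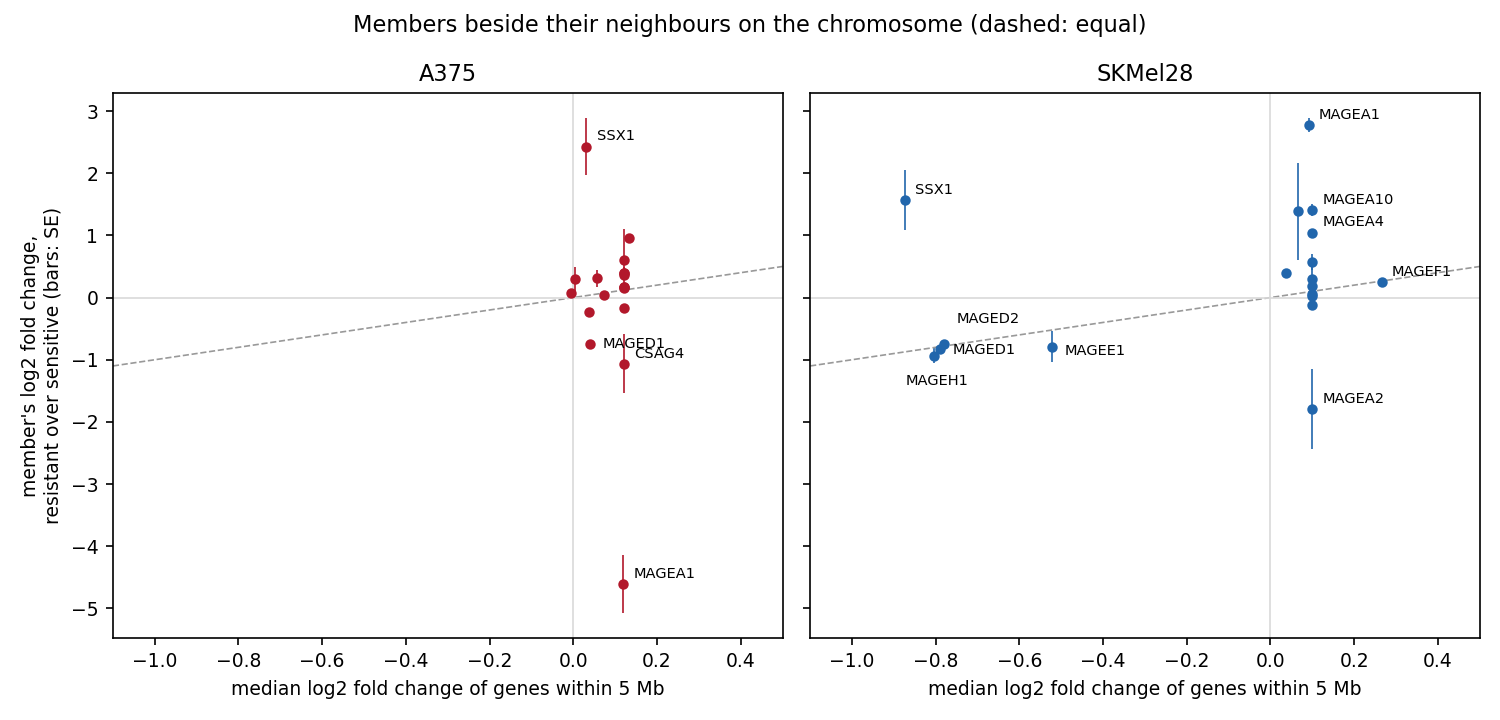
Log2 fold change of resistant over sensitive cells of each member with more than 3 reads in every group and at least 10 neighbours (y, with SE bars) against the median of the genes within 5 Mb (x), in A375 (left) and SKMel28 (right), with a dashed line where both are equal. In SKMel28, MAGED1, MAGED2, MAGEH1 and MAGEF1 lie near the line, while MAGEA1 and SSX1 lie far above it.

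Levels between genes were compared as CPM per kb of merged exons (GENCODE release 29). In resistant A375 cells the order was MAGEA4 (275 CPM per kb), MAGEA3 (92.9), MAGEC2 (83.4), MAGEA6 (58.4) and MAGEA12 (53.3), and in sensitive A375 cells MAGEA4 (308), MAGEC2 (113), MAGEA3 (82.3), MAGEA6 (51.9) and MAGEA12 (48.0). MAGEA3 and MAGEC2 thus changed places. In resistant SKMel28 cells the order was PRAME (149), MAGEA4 (115), MAGEA3 (97.9), MAGEA6 (69.4) and MAGEA12 (43.7). In sensitive SKMel28 cells it was PRAME (114), MAGEA3 (94.2), MAGED2 (70.1), MAGEA6 (60.7) and MAGEA4 (55.8). MAGED2 and MAGEF1, at 41.7 and 41.6 CPM per kb, were the next in resistant SKMel28 cells.

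The last comparison set the lines against each other. Of the 26 tested members, 12 were higher and 11 lower in resistant A375 than in resistant SKMel28 cells, or 88.5% called against 85.3% of all genes (42.6% higher and 42.7% lower). Between the sensitive cells 11 were higher and 10 lower in A375, or 80.8% called against 82.9% of all genes (42.4% higher and 40.5% lower). MAGEC2 stood at 166 CPM in resistant A375 and 0.0315 CPM in resistant SKMel28 cells, a ratio of 5460.3 (95% exact counting interval 1868 to 26480.0), on 3 reads in resistant SKMel28 cells, all in replicate 2. MAGEA11 was higher in A375 by 8.89 ± 0.16 SE, adjusted p = 2.45e-39 among resistant cells and by 9.32 ± 0.21 SE, adjusted p = 1.02e-35 among sensitive cells. The sensitive value rests on 4 reads, all in sensitive SKMel28 replicate 1, without which the group is at 0 reads. PRAME was lower in A375, with log2 ratios of -2.07 ± 0.03 SE, adjusted p = 5.4e-41 among resistant and -1.73 ± 0.03 SE, adjusted p = 6.56e-38 among sensitive cells. MAGEA1 was lower in A375, with log2 ratios of -9.53 ± 0.23 SE, adjusted p = 5.71e-34 among resistant (-10.74 without resistant A375 replicate 2) and -2.15 ± 0.17 SE, adjusted p = 4.42e-15 among sensitive cells. These between-line values depend on scaling, since scaling by library size moved the median of all genes to 0.23 among resistant and 0.18 among sensitive cells. With that scaling MAGEA3 turned from lower to higher in resistant A375 than in resistant SKMel28 cells (0.14, adjusted p = 0.000347, against -0.08). MAGEF1 changed sign (0.0854 against -0.13) but did not pass with that scaling (adjusted p = 0.116). The main calls of MAGEA3 (adjusted p = 0.0402) and MAGEF1 (adjusted p = 0.0206) were also lost in 9 and 4 other settings.

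Genes that work with the members were followed as lists, with the genes of smallest adjusted p named. Their counts are read against all genes tested, of which 51.3% were called in A375 (25.0% higher and 26.3% lower) and 70.0% in SKMel28 (34.2% higher and 35.8% lower). Of 17 tested genes of DNA methylation, the mark that silences cancer-testis promoters, 4 rose and 8 fell in resistant A375 cells and 9 rose and 4 fell in resistant SKMel28 cells. That is 70.6% called in A375 and 76.5% in SKMel28, the second near the share of all genes. Their median log2 fold changes were -0.13 and 0.21. The maintenance methyltransferase DNMT1 stood at 347 CPM in resistant and 396 CPM in sensitive A375 cells (-0.19 ± 0.03 SE, adjusted p = 4.1e-06), and at 299 CPM in resistant and 282 CPM in sensitive SKMel28 cells (0.08 ± 0.03 SE, adjusted p = 0.0244). Its cofactor UHRF1 fell in both lines (-0.16 ± 0.04 SE, adjusted p = 0.00041 in A375 and -0.19 ± 0.04 SE, adjusted p = 4.57e-05 in SKMel28). HELLS, a chromatin remodeller needed for DNA methylation, rose in both (0.24 ± 0.05 SE, adjusted p = 0.000249 in A375 and 0.92 ± 0.06 SE, adjusted p = 4.6e-18 in SKMel28). Of the de novo enzymes, DNMT3B fell in A375 (-0.47 ± 0.14 SE, adjusted p = 0.00361) and did not pass in SKMel28 (0.21 ± 0.16 SE, adjusted p = 0.242), and DNMT3A rose in SKMel28 (0.42 ± 0.09 SE, adjusted p = 8.57e-05) and did not pass in A375 (-0.18 ± 0.11 SE, adjusted p = 0.166). The demethylating dioxygenase TET2 fell in A375 (-0.76 ± 0.09 SE, adjusted p = 1.82e-09) and rose in SKMel28 (0.81 ± 0.09 SE, adjusted p = 1.35e-10), as did the glycosylase TDG (-0.42 ± 0.06 SE, adjusted p = 3.58e-08 in A375 and 0.51 ± 0.06 SE, adjusted p = 5.05e-10 in SKMel28) and the methyl-DNA reader ZBTB38 (-0.13 ± 0.04 SE, adjusted p = 0.00616 and 0.56 ± 0.04 SE, adjusted p = 9.99e-17). TET3 fell in A375 (-0.33 ± 0.06 SE, adjusted p = 4.58e-06) and did not pass in SKMel28 (-0.08 ± 0.07 SE, adjusted p = 0.291), and TET1 passed in neither (-0.14 ± 0.19 SE, adjusted p = 0.579 in A375 and 0.46 ± 0.21 SE, adjusted p = 0.0517 in SKMel28).

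Of 25 tested repressors of germline genes, 14 fell and 1 rose in A375, and in SKMel28 10 rose and 6 fell. In SKMel28 64.0% were called, near the share of all genes, while 14 of 25 lower in A375 stands against 26.3% of all genes. The medians were -0.14 in A375 and 0.06 in SKMel28. The histone deacetylases HDAC1 and HDAC2 fell in A375 (-0.62 ± 0.04 SE, adjusted p = 8.85e-19 and -0.20 ± 0.04 SE, adjusted p = 9.62e-06) and rose in SKMel28 (0.40 ± 0.04 SE, adjusted p = 3.73e-13 and 0.46 ± 0.04 SE, adjusted p = 9.7e-15). MGA, a repressor of germline genes that binds the E-box, also fell in A375 (-0.19 ± 0.06 SE, adjusted p = 0.00443) and rose in SKMel28 (0.67 ± 0.06 SE, adjusted p = 4.12e-14). KDM5C, an X-linked H3K4 demethylase, fell in SKMel28 (-0.93 ± 0.04 SE, adjusted p = 3.35e-23) and did not pass in A375 (0.07 ± 0.04 SE, adjusted p = 0.13). The median of 411 X genes in SKMel28 was -0.39, and the part of the chromosome in its fall was not tested. CTCFL, a germline paralogue of CTCF, stood at 0 CPM in both A375 groups and at 0.268 CPM in resistant and 0.409 CPM in sensitive SKMel28 cells (-0.62 ± 0.60 SE, adjusted p = 0.361). Among 14 genes of ETS factors and SP1, 6 rose and 4 fell in A375, while in SKMel28 3 rose and 6 fell (71.4% and 64.3% called, the second near the share of all genes). ETS1 rose in both lines (0.55 ± 0.04 SE, adjusted p = 1.45e-16 in A375 and 0.88 ± 0.04 SE, adjusted p = 1.65e-24 in SKMel28), and ETV4 fell in both (-0.41 ± 0.04 SE, adjusted p = 5.93e-11 in A375 and -2.41 ± 0.05 SE, adjusted p = 2.15e-35 in SKMel28). ELK1 and ETV1 rose in A375 (0.20 ± 0.05 SE, adjusted p = 0.00027 and 0.25 ± 0.05 SE, adjusted p = 3.44e-05) and fell in SKMel28 (-1.26 ± 0.05 SE, adjusted p = 5.78e-25 and -0.58 ± 0.05 SE, adjusted p = 3.68e-14).

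Of the 12 tested ligase partners and substrates of MAGE proteins, 2 rose and 3 fell in A375, while in SKMel28 5 rose and 3 fell. Their called shares of 41.7% and 66.7% lie below those of all genes and say nothing particular about the list. TRIM28, the partner of MAGEA3, MAGEA6 and MAGEC2, fell in A375 (-0.11 ± 0.04 SE, adjusted p = 0.0152) and rose in SKMel28 (0.19 ± 0.04 SE, adjusted p = 0.000103). RAD18, stabilised by MAGEA4, fell in A375 (-0.16 ± 0.05 SE, adjusted p = 0.00863) and rose in SKMel28 (0.58 ± 0.05 SE, adjusted p = 2.78e-13). TRIM27, a partner of MAGEL2, rose in A375 (0.13 ± 0.05 SE, adjusted p = 0.041) and fell in SKMel28 (-0.24 ± 0.05 SE, adjusted p = 7.01e-05). USP7, another MAGEL2 partner, rose in SKMel28 (0.70 ± 0.04 SE, adjusted p = 8.07e-21) and did not pass in A375 (0.08 ± 0.04 SE, adjusted p = 0.0803). The ligase PJA1, a partner of MAGED1, fell in SKMel28 (-0.82 ± 0.08 SE, adjusted p = 4.08e-13) and did not pass in A375 (-0.04 ± 0.07 SE, adjusted p = 0.644). TRIM31, a partner of MAGEA1, did not pass the filter on low counts. Of the 3 MAGE family genes that the name rule leaves out, necdin (NDN), which lies beside MAGEL2 in the imprinted region, fell in both lines (-0.32 ± 0.08 SE, adjusted p = 0.000359 in A375 and -0.96 ± 0.07 SE, adjusted p = 8.77e-17 in SKMel28). NDNL2, a subunit of the SMC5-SMC6 complex, rose in both (0.60 ± 0.06 SE, adjusted p = 6.8e-11 in A375 and 0.66 ± 0.07 SE, adjusted p = 3.82e-11 in SKMel28), and TRO passed in neither (0.63 ± 0.31 SE, adjusted p = 0.0871 in A375 and -1.27 ± 0.62 SE, adjusted p = 0.0668 in SKMel28). In the SMC5-SMC6 complex, 3 of 9 genes rose and 2 fell in A375, while in SKMel28 7 rose and 1 fell (55.6% and 88.9% called, the first near the share of all genes). SMC6 rose in SKMel28 (0.76 ± 0.05 SE, adjusted p = 7.82e-18), and SMC5 was the one that fell there (-0.90 ± 0.05 SE, adjusted p = 4.23e-20).

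Of 17 tested PRAME partners and retinoic acid response genes, 4 rose and 6 fell in A375, while in SKMel28 2 rose and 9 fell. The called shares of 58.8% and 64.7% lie near the 51.3% and 70.0% of all genes. CUL2, the scaffold of PRAME's ligase, rose in both lines (0.18 ± 0.05 SE, adjusted p = 0.00155 in A375 and 0.76 ± 0.05 SE, adjusted p = 1.63e-17 in SKMel28). DHRS3, a retinoid-induced reductase, fell in both (-1.59 ± 0.08 SE, adjusted p = 2.3e-21 in A375 and -1.39 ± 0.29 SE, adjusted p = 5.44e-05 in SKMel28). The transglutaminase TGM2, a retinoid target, rose in A375 (0.36 ± 0.03 SE, adjusted p = 1.03e-12) and fell in SKMel28 (-3.87 ± 0.18 SE, adjusted p = 8.63e-23). The 10 melanocyte differentiation antigens, the other antigen class of melanoma, summed to at most 46.6 CPM in resistant and 56.2 CPM in sensitive A375 libraries, where 3 rose and 2 fell, near the share of all genes called. In SKMel28, 6 rose and 4 fell (100% called, against 70.0%). TYRP1, a melanin enzyme, stood there at 2037 CPM in resistant and 218 CPM in sensitive cells (3.23 ± 0.04 SE, adjusted p = 6.06e-45), and the melanocortin receptor MC1R fell (-2.35 ± 0.05 SE, adjusted p = 1.16e-35). Among 18 tested genes of antigen processing and presentation, which display MAGE peptides, 14 rose and 2 fell in A375, while in SKMel28 12 fell and 5 rose. That is 88.9% called in A375 and 94.4% in SKMel28, against 51.3% and 70.0% of all genes. The medians were 0.32 in A375 and -0.46 in SKMel28. HLA-B and HLA-C rose in A375 (0.42 ± 0.04 SE, adjusted p = 6.14e-11 and 0.24 ± 0.05 SE, adjusted p = 6.5e-05) and fell in SKMel28 (-2.23 ± 0.05 SE, adjusted p = 6.96e-36 and -1.29 ± 0.05 SE, adjusted p = 4.25e-25). The chaperone gene CANX fell in A375 (-0.12 ± 0.03 SE, adjusted p = 0.00114) and rose in SKMel28 (0.71 ± 0.03 SE, adjusted p = 1.85e-23). The HLA genes resemble one another, and how reads were split between them is uncertain.

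Of a list of 91 other cancer-testis genes, 51 were tested, of which 11 rose and 17 fell in A375, while in SKMel28 14 rose and 15 fell. The called shares were 54.9% against 51.3% of all genes in A375 and 56.9% against 70.0% in SKMel28, near or below the background, and are no result about the list. PASD1, an X-linked cancer-testis gene, had 83.3 CPM in resistant and 12.7 CPM in sensitive SKMel28 cells (2.71 ± 0.08 SE, adjusted p = 5.88e-29). VCX3A, another X-linked testis gene, had 21.8 CPM in resistant and 2.95 CPM in sensitive SKMel28 cells (2.88 ± 0.12 SE, adjusted p = 4.4e-24). IL13RA2, a decoy receptor for interleukin 13, fell in both lines (-0.99 ± 0.04 SE, adjusted p = 9.99e-23 in A375 and -4.97 ± 0.27 SE, adjusted p = 1.35e-20 in SKMel28).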

How the data were processed

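Poly(A) RNA from 12 libraries was sequenced as paired reads. The authors deposited unnormalised read counts, 1 per gene symbol. HISAT2, StringTie and GRCh38.p12 appear in the submitters' processing notes, while names in the deposit point to STAR, so the aligner is unsettled. Counting was unstranded as far as the names tell, and 15.1 to 19.5% of all reads tallied per library were assigned to no gene. Samples were grouped by their labels. The members and lists were chosen with earlier results of these data known.

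Counts were tested with edgeR 4.0.16 in R 4.3.3: filterByExpr, TMM scaling and a robust quasi-likelihood fit of 4 group means (8 residual degrees of freedom) on 15506 genes, with Benjamini-Hochberg adjustment over all of them and a threshold of 0.05. DESeq2 1.42.0, other scalings, no filter, each line alone, summed copies, a replicate block and leaving out each library were alternatives. Folds against a group at 0 reads use a floor of 3 reads over the group and leave out the counting error of the higher group. Groups of 1 to 3 reads get an exact 95% counting interval. Members of at least 10 CPM are given by library, lower ones by means, folds or reads, untested ones with 10 reads or more by reads, and up to 4 called genes of smallest adjusted p per list, beside a few preset ones, by test. Window uniqueness, gene positions and exon lengths came from GENCODE 29, promoters from RefSeq. The test was checked on simulated counts. Libraries of a group differed by more than sampling noise (chi-square per degree of freedom 2.81 to 7.45).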

Additional observations from a re-analysis of the deposited data

Results flagged for a closer look

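For 17 of the 26 tested members the change in resistant over sensitive cells differed between A375 and SKMel28 in the test of that difference (edgeR, adjusted p below 0.05), or 65.4% against 63.8% of all genes tested, so their number is near the background. Values are log2 differences of A375 minus SKMel28 changes.

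The difference was largest among members with a fitted value in MAGEB2 (8.69, on 3 reads in resistant SKMel28 cells, all in replicate 3) and MAGEA1 (-7.38, on 4 reads in resistant A375 cells, and -8.58 without their replicate 2). It was 2.39 for MAGEA2 (3.76 without resistant SKMel28 replicate 2, and 1.91 with the call lost without replicate 3), -1.36 for CSAG4, 1.24 for MAGEH1, -1.21 for MAGEA4, 1.09 for MAGEE1 and -1.005 for MAGEA10. Smaller differences were 0.51 for MAGED2, 0.48 for CSAG1, -0.34 for PRAME, -0.18 for MAGEF1 and 0.12 for MAGEA3. For 4 members with a group at 0 reads only the adjusted p is given: 1e-08 for MAGEC1, 2.53e-07 for CTAG2, 7.81e-07 for MAGEL2 and 0.000422 for GAGE1.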

How the results depend on the processing

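No count of called genes or members moved by more than 1.5 times under any alternative. In A375, 7959 genes were called, 7918 to 8216 under other settings and 7207 to 8244 without 1 library. Members called higher numbered 12 (9 to 15, and 10 to 12 without 1 library) and lower 7 (7 to 9 in both). In SKMel28, members called higher numbered 10 (10 in other settings, 10 to 12 without 1 library) and lower 7 (7 to 8, and 6 to 8). For the difference between lines they were 8 (7 to 10) and 9 (8 to 9, and 7 to 9). With scaling by library size, MAGEA3 reversed between resistant A375 and resistant SKMel28 cells, to 0.14 against -0.08. MAGEF1 changed sign, to 0.0854 against -0.13, and did not pass with that scaling (adjusted p = 0.116). The cause of these shifts was not tested. For the difference between lines, the calls of MAGEA3, CSAG4 and MAGEF1 were lost without some single libraries (adjusted p 0.0514 to 0.106, 0.0554 to 0.128 and, with other settings, 0.0551 to 0.203), and that of MAGEA2 without resistant SKMel28 replicate 3 (0.0511). Same-numbered libraries deviated together little (correlations -0.00 to 0.05, none over 0.1). Such correlations cannot settle whether the numbers pair the samples, since paired libraries need not deviate together. With the replicate number as a block, 8077 genes were called in A375 (11 members higher, MAGEH1 lost at an adjusted p of 0.054) and 10896 in SKMel28, against 7959 and 10854 without it. All 3 resistant SKMel28 libraries correlated best with their own number and 1 of 3 resistant A375 libraries did, a hint from the data and not the design. Members with few reads and near-identical copies are limited by depth and by reads that could not be placed.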
